A study of Bos taurus with 36 samples.

Results

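THRSP, GPAM and 8 other genes of fatty acid and triglyceride synthesis were followed in the liver of dairy cows before and after lipopolysaccharide (LPS), the outer membrane endotoxin of Escherichia coli, was infused into the udder. The other genes were SREBF1, ACACA, FASN, SCD, AGPAT2, LPIN1, DGAT1 and DGAT2. The 10 genes were chosen by name for their place in the pathway, with earlier results of these data known. Counts of them beside all probe sets are therefore a description. Every probe set of the array that the annotation gives to 1 of them alone, by its current symbol or a synonym, was read. This gave 14 of the 24128 probe sets, with 4 for SREBF1, 2 for ACACA and 1 for each other gene. A gene with several probe sets is described through the brightest, the one with the highest mean over all arrays. By that rule the array measures 9155 genes in all.

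Liver makes triglyceride by joining fatty acids to a glycerol backbone in steps. ACACA and FASN build saturated fatty acids, SCD puts in a double bond, and GPAM, AGPAT2, the lipins and the DGAT enzymes add the acyl chains and remove the phosphate on the way from glycerol 3-phosphate to triglyceride. SREBF1 encodes a transcription factor that activates many of these genes, and THRSP encodes a small protein, Spot 14, that rises with thyroid hormone, insulin and carbohydrate feeding and promotes lipogenesis. In ruminants most new fatty acid is made in adipose tissue and udder, while the liver chiefly esterifies fatty acids that it takes up from blood, and triglyceride can build up there in early lactation.

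The samples were biopsies of 8 healthy Holstein-Friesian cows that had calved once, 9 to 12 weeks before. At time 0 each cow received 200 ug of E. coli LPS in 10 ml of saline on the right front side of the udder and saline alone on the left front side, and all cows carried a jugular catheter. The 36 arrays hold 1 cow at 1 hour each: all 8 cows at -22, 9 and 48 h, and cows 1, 3, 7 and 8 also at 3, 6 and 12 h. Each hour after infusion was compared with all 8 cows at -22 h, and no arrays of cows without LPS were analysed here. Effects of LPS, of repeated biopsies and of hour of day or feeding therefore cannot be told apart in these arrays, and the saline-infused cows with which the study checked the biopsy were not analysed here. Values are on the log2 scale, a change of 1 is 2-fold, and a change was called when its limma p, adjusted over all probe sets by Benjamini-Hochberg, was below 0.05. Each SE is that of the limma fit.

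The arrays had medians between 4.15 and 4.38, and single values ran from 0.69 to 16.37. A value near 2 to 3 lies near the lower end, so that a fall to such a value is a lower bound of the true fall. A probe set may also level off above this range, so a fall that ends higher may be a lower bound too. The labelled tissue matched its markers: ALB, the main plasma protein of hepatocytes, had a value of 15.87 to 16.22 over the 36 arrays. ADIPOQ and LEP, the defining hormones of adipocytes, lay at 2.09 to 2.22 and 2.199 to 2.398, near the lower end in every array, while the other 3 adipocyte markers did not: CIDEA ran from 6.47 to 9.31, CFD from 9.28 to 11.57 and LPL from 3.45 to 7.69. Genes of neutrophils moved with the hours: 3 of the 4 measured, S100A8, S100A9 and S100A12, were higher at each hour, and S100A8 rose by 6.19 at 9 h (SE 0.34), while MMP9 stayed between 2.05 and 2.66. The mean of the 4 neutrophil markers ran from 4.05 to 4.95 over the cows at -22 h and from 8.36 to 10.55 at 9 h, whereas that of the 6 hepatocyte markers ran from 14.23 to 14.60 and from 14.26 to 14.55. That steady mean held calls both ways at 9 h, with TTR, APOA1 and TF lower by -0.44, -1.02 and -0.20 and FGB higher by 1.37. At 9 h 28.4% of all genes were called lower and 36.6% higher. Beside these shares, 3 of 5 endothelial markers were lower and 1 higher, 2 of 6 of Kupffer cells and macrophages, 1 of 3 of cholangiocytes and none of 5 of T and natural killer cells were lower, 2 of 5 of adipocytes were lower and 2 higher, and 1 of 6 of stellate cells and fibroblasts and 1 of 4 of red cells were higher. The part of a changed cell mixture in the results was not tested, and in bulk tissue fewer cells of a type and less RNA per cell cannot be told apart.

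**Figure D1:**
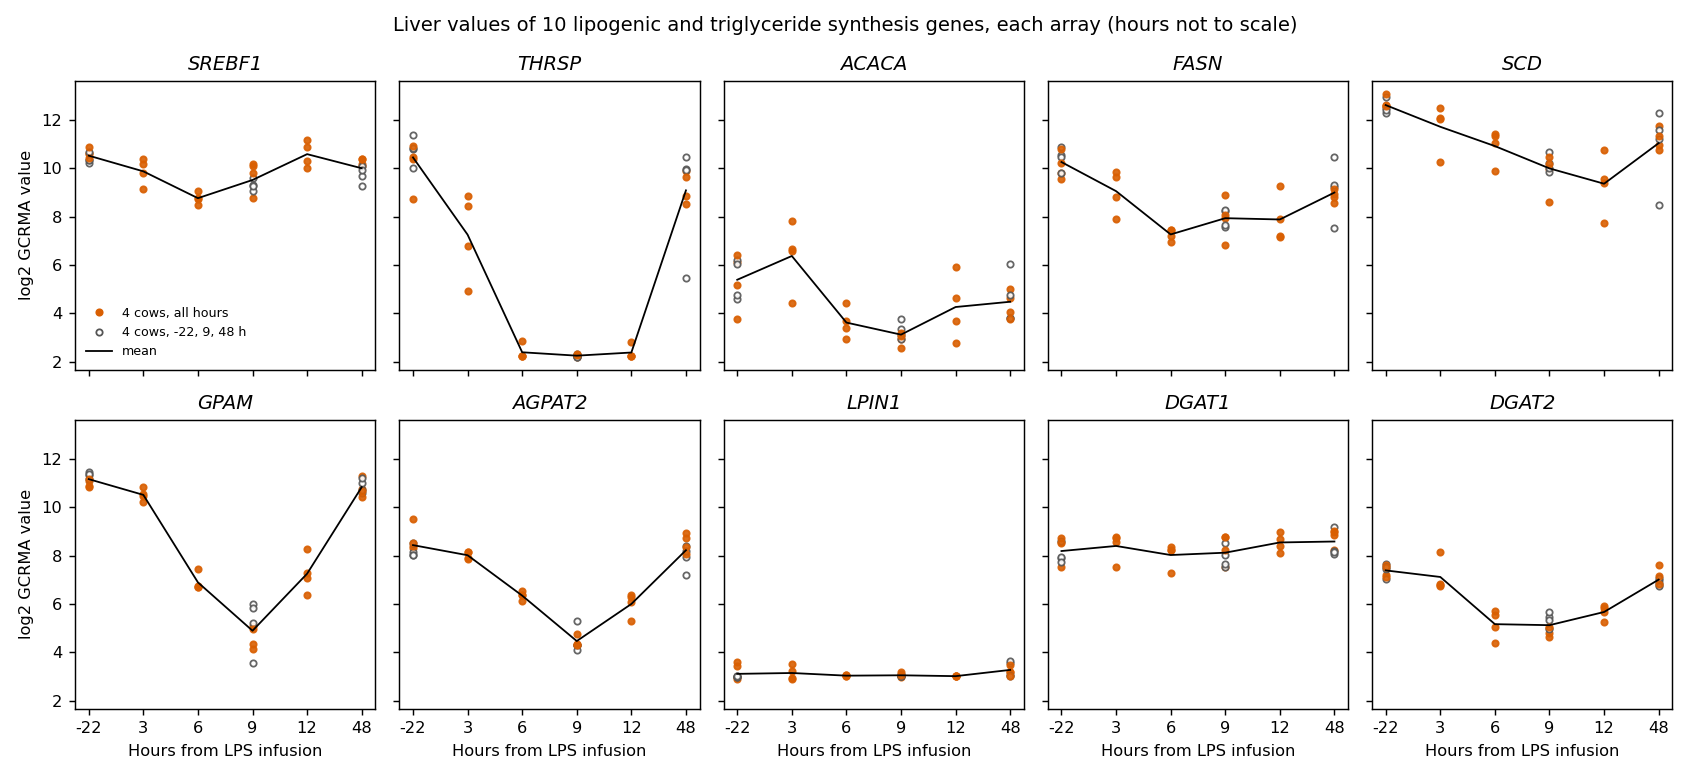
Log2 value of each of the 10 genes (brightest probe set) on every array against hours from LPS infusion, with the hours evenly spaced. Filled points are the 4 cows with all hours, open points the 4 cows with arrays at -22, 9 and 48 h, and the line joins the hourly means. THRSP lay near the lower end of the scale at 6, 9 and 12 h, GPAM and AGPAT2 were lowest at 9 h, and DGAT1 and LPIN1 showed no change of that size.

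Most of the 10 genes were lower at 6 and 9 h, and their changes were smaller at 48 h. At 3 h only THRSP was called, and none of the 14 probe sets was called higher, against 2.4% of all probe sets called lower and 3.5% called higher. At 6 h 11 of the 14 were called lower and none higher, against 22% and 23.3% of all probe sets. At 9 h the count was again 11 lower and none higher, against 22.6% and 32%. At 12 h 6 were called lower and none higher, against 18.9% and 22.2%, and at 48 h 6 were called lower and none higher, against 12.2% and 17.9%. The 3 that were not called at 6 and 9 h were those of LPIN1, of DGAT1 and the dimmest of SREBF1. The median change of the 14 was -0.43 at 3 h, -1.76 at 6 h, -1.88 at 9 h, -0.85 at 12 h and -0.45 at 48 h, while the median over all probe sets lay between -0.03 and 0.03 at every hour. The 48 h count was less stable than the others. It was 3 without cow 4, 5 or 8 or without the 48 h array of cow 2, and 1 in the 4 cows with all hours. Centring the arrays on their medians moved the median change at 48 h by 0.13, and then 4 were lower and 2 higher, LPIN1 and the dimmest of SREBF1. With arrays weighted by quality 5 were lower and 2 higher, LPIN1 and DGAT1. Read by gene, 1, 8, 8, 6 and 4 of the 10 genes were lower at the 5 hours in turn.

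**Figure D2:**
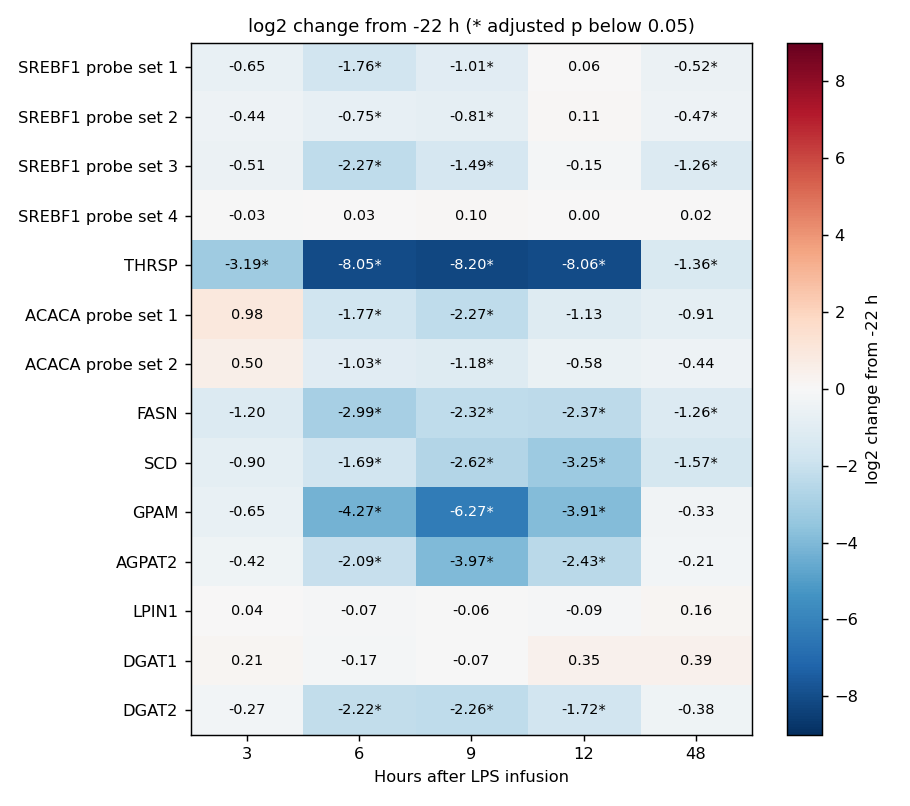
Log2 change from -22 h at 5 hours after LPS infusion (columns) for the 14 probe sets (rows, ordered by role). Colour gives the change, with blue for lower and red for higher, and an asterisk marks an adjusted p below 0.05. THRSP reached -8.20 and GPAM -6.27 at 9 h, and no asterisk stands on a positive change.

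Of these genes only THRSP was called at 3 h, and it changed the most at each hour from 3 to 12 h. GPAM, AGPAT2, FASN, SCD and SREBF1 were also lower in every cow at 3 h, but were not called in the main fit. LPIN1 was lower in 4 of 4 cows too, although its change in the fit was 0.04. The share of all probe sets lower in every cow at 3 h was not counted, so nothing is read from this pattern. THRSP values at -22 h ran from 8.74 to 11.39, with a median of 10.62 over the 8 cows. At 3 h they were 6.79 in cow 1, 4.93 in cow 3, 8.44 in cow 7 and 8.85 in cow 8. Every one of the 4 cows was already below its own value at -22 h, although the highest lay just above the lowest cow at -22 h. The log2 change at 3 h was -3.19 (SE 0.63, adjusted p = 8.19e-04). At 6 h the values were 2.24, 2.24, 2.84 and 2.25 in the same order. At 9 h all 8 cows lay between 2.21 and 2.30. The 12 h values were 2.81, 2.25, 2.23 and 2.23. THRSP was thus near the lower end of the scale in every cow at 6, 9 and 12 h, where 20.5%, 14.6% and 20.8% of all probe sets had a lower mean, and no array at these hours came near the range at -22 h. Its changes were -8.05 (SE 0.63, adjusted p = 2.29e-12), -8.20 (SE 0.51, adjusted p = 3.65e-15) and -8.06 (SE 0.63, adjusted p = 1.64e-12). They are lower bounds of the true fall, and differences among these 3 hours cannot be read.

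By 48 h THRSP was above its 9 h value in all 8 cows. Its values ran from 5.45 in cow 2 to 10.45, with a median of 9.75. Against 12 h this rise was DE by the successive comparison, in which a transcript is differentially expressed (DE) when its Bonferroni-adjusted p is below 0.01. Against -22 h it was still lower by a log2 change of -1.36 (SE 0.51, 95% interval -2.404 to -0.32, adjusted p = 0.0450) and lower in 7 of 8 cows. That call rested on single cows: without the 48 h array of cow 2 the change was -0.84 (adjusted p = 0.103), and it was lost when any 1 of cows 2 to 8 was left out.

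SREBF1 fell less than THRSP at 6 and 9 h, was not called at 12 h, and was again called lower than at -22 h at 48 h. Its brightest probe set lay between 10.23 and 10.88 at -22 h, with a median of 10.52. At 3 h the values were 10.17 in cow 1, 9.14 in cow 3, 10.37 in cow 7 and 9.80 in cow 8, a change of -0.65 that was not called (adjusted p = 0.128). With the cow as a block the change at 3 h was -0.84 and was called (adjusted p = 0.0112). The lowest values came at 6 h, with 8.77, 8.74, 9.06 and 8.47, all below every cow at -22 h. The log2 change was then -1.76 (SE 0.24, adjusted p = 2.92e-07). At 9 h it ran from 8.79 to 10.18, a change of -1.01 (SE 0.20, adjusted p = 5.83e-05). At 12 h the values were 11.15, 10.00, 10.30 and 10.88, which reached past the range at -22 h on both sides, and the change was 0.06 (95% interval -0.43 to 0.56). Against the same cow at -22 h, the 12 h value was lower in 3 of 4 cows and higher in cow 1. At 48 h it lay between 9.27 and 10.39, below its own -22 h value in all 8 cows, with a change of -0.52 (adjusted p = 0.0468) that held in 8 of 20 alternatives, over which it ran from -0.59 to -0.38. The second and the third probe set changed by -0.75 and -2.27 at 6 h and by -0.81 and -1.49 at 9 h, all called, and by 0.11 and -0.15 at 12 h. The third ran from 2.59 to 3.60 at 6 h, near the lower end, so its change there may be a lower bound. At 48 h the second changed by -0.47 (adjusted p = 0.0447) and the third by -1.26 (SE 0.29, adjusted p = 0.00199), lower in 6 and in 8 of 8 cows. In the second, every cow except cow 4 (6.26) lay between 6.55 and 6.58 at 48 h. Whether this narrow band is a plateau of that probe set was not tested. The call of the third at 48 h held with centred arrays (adjusted p = 0.00148) and with weighted arrays (adjusted p = 0.00449), and that of the second held with neither (adjusted p = 0.115 and 0.0621).

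The comparison of 12 h with 6 h was added after the values of SREBF1 were seen. SREBF1 was higher at 12 h than at 6 h by 1.82 in its brightest probe set (SE 0.28, adjusted p = 3.85e-06), by 0.86 in the next (SE 0.25, adjusted p = 0.00730) and by 2.12 in the third (SE 0.41, adjusted p = 9.25e-05). Each was higher in 4 of 4 cows, and in the brightest and the third the 2 hours did not overlap. The call of the next was lost without cow 8 (0.71, adjusted p = 0.0905). The dimmest SREBF1 probe set had hourly means of 2.26 to 2.39, near the lower end, and can show no fall. Between 6 and 12 h 3 of the 14 probe sets were thus called higher and 1, that of SCD, lower, against 17.8% and 14.2% of all probe sets. THRSP differed between these hours by -0.01 and FASN by 0.62 (SE 0.48, 95% interval -0.37 to 1.60).

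ACACA encodes acetyl-CoA carboxylase alpha, which makes malonyl-CoA and sets the pace of fatty acid synthesis. It was dim and varied widely among cows, from 3.77 to 6.43 at -22 h. At 3 h its brighter probe set read 6.66 in cow 1, 4.42 in cow 3, 7.83 in cow 7 and 6.58 in cow 8, so that 3 of 4 cows lay above their own -22 h value and cow 3 below. The change of 0.98 was not called (SE 0.54, adjusted p = 0.379). When arrays were weighted by quality the 3 h change was 1.71 in the brighter and 1.23 in the dimmer probe set, and both were called higher (adjusted p = 0.0168 and 0.00267). At 6 h ACACA was lower by -1.77 (SE 0.54, adjusted p = 0.00779), and at 9 h all 8 cows were lower, at 2.56 to 3.79, with a change of -2.27 (SE 0.44, adjusted p = 5.09e-05). Both hours overlapped -22 h, and the 6 h call was lost without cow 1 (-1.59, adjusted p = 0.0587), without cow 3 (-1.40, adjusted p = 0.0506) and in the 4 cows with all hours (-1.75, adjusted p = 0.0545). The dimmer probe set moved the same way, by -1.03 and -1.18, and was called at both hours. The brighter reached values near the lower end at 9 h, so its change there may be a lower bound. At 12 h ACACA ran from 2.79 in cow 7 to 5.92 in cow 8, and neither 12 h nor 48 h was called. The 12 h change was -1.13, and without cow 8 it was -1.91 and called (adjusted p = 0.00819).

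FASN, the fatty acid synthase that elongates malonyl units to palmitate, lay between 9.54 and 10.86 at -22 h. At 3 h it read 8.83 in cow 1, 7.91 in cow 3, 9.84 in cow 7 and 9.63 in cow 8, each below the same cow at -22 h. The change was -1.20 (SE 0.42, adjusted p = 0.0920), and it was called when dim probe sets were filtered out (adjusted p = 0.0486). It was lowest at 6 h, with 7.20, 6.94, 7.45 and 7.46, where the 4 cows lay within a narrow range. The change was -2.99 (SE 0.42, adjusted p = 3.63e-07), a fall of 7.95-fold. At 9 h FASN ran from 6.81 to 8.91, with a change of -2.32 (adjusted p = 5.75e-07), and at 12 h it read 7.91, 7.20, 7.15 and 9.27, with a change of -2.37 (adjusted p = 1.57e-05). None of these 3 hours overlapped -22 h. FASN was still lower at 48 h, by -1.26 (SE 0.34, 95% interval -1.96 to -0.56, adjusted p = 0.00842) and in 7 of 8 cows, with values from 7.52 in cow 2 to 10.46 in cow 6. That call held in 19 of 20 alternatives and was lost in the 4 cows with all hours (-1.23, adjusted p = 0.148).

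SCD, the stearoyl-CoA desaturase that makes oleate and palmitoleate, had its lowest mean at 12 h, but no step between successive hours up to 12 h was called. From 9 h (8 cows) to 12 h (4 cows) it changed by -0.63 (adjusted p = 0.468, lower in 3 of 4 cows). SREBF1, FASN, ACACA, GPAM, AGPAT2 and DGAT2 had their lowest means at 6 or 9 h, and for THRSP the hour cannot be read. SCD values at -22 h lay close together, from 12.27 to 13.06. They were 12.08, 10.24, 12.47 and 12.05 in cows 1, 3, 7 and 8 at 3 h, a change of -0.90 that was not called (adjusted p = 0.398). At 6 h they were 11.06, 9.88, 11.39 and 11.33, and at 12 h 9.39, 7.75, 9.54 and 10.75. Cow 3 was the lowest of the 4 at each of these hours. The changes were -1.69 at 6 h (SE 0.51, adjusted p = 0.00656), -2.62 at 9 h (SE 0.41, adjusted p = 2.07e-06) and -3.25 at 12 h (SE 0.51, adjusted p = 2.39e-06), with no overlap with -22 h. SCD was lower at 12 h than at 6 h by -1.56 (SE 0.59, adjusted p = 0.0404) and in 4 of 4 cows, but this call was lost without cow 1 (-1.52, adjusted p = 0.156), without cow 3 (-1.36, adjusted p = 0.0624) and without cow 7 (-1.46, adjusted p = 0.151). At 48 h it ran from 8.47 in cow 2 to 12.27 in cow 6, lower than at -22 h in 8 of 8 cows, by -1.57 (SE 0.41, 95% interval -2.42 to -0.73, adjusted p = 0.00689). The 48 h call was lost in the 4 cows with all hours (-1.51, adjusted p = 0.127).

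GPAM encodes the mitochondrial glycerol-3-phosphate acyltransferase, which adds the first acyl chain to glycerol 3-phosphate. Its values at -22 h were tight, from 10.85 to 11.44. At 3 h they were 10.46 in cow 1, 10.23 in cow 3, 10.53 in cow 7 and 10.82 in cow 8. All 4 were below every cow at -22 h, but the change of -0.65 was not called (SE 0.32, adjusted p = 0.290). At 6 h GPAM had dropped to 6.73, 6.70, 7.46 and 6.69. At 9 h it ran from 3.56 in cow 6 to 5.99 in cow 2, with a median of 5.03, the lowest of the time course. Its 12 h values of 8.29, 6.39, 7.06 and 7.28 lay above every cow at 9 h. The change was -4.27 at 6 h (SE 0.32, adjusted p = 7.39e-13), -6.27 at 9 h (SE 0.26, adjusted p = 1.47e-19) and -3.91 at 12 h (SE 0.32, adjusted p = 4.05e-12). The fall at 9 h was 77.0-fold, and 13 of the 9155 genes had a more negative change. At 48 h GPAM was between 10.44 and 11.29 and overlapped -22 h, with a change of -0.33 (SE 0.26, 95% interval -0.86 to 0.20, adjusted p = 0.323).

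AGPAT2 acylates the product of GPAM to phosphatidic acid, and its course was like that of GPAM. It lay between 8.03 and 9.52 at -22 h. At 3 h it read 7.89 in cow 1, 8.16 in cow 3, 8.15 in cow 7 and 7.86 in cow 8, with a change of -0.42 (adjusted p = 0.441). It read 6.37, 6.35, 6.52 and 6.14 at 6 h and 6.37, 5.29, 6.28 and 6.07 at 12 h. At 9 h the 8 cows lay between 4.11 and 5.30, and these did not overlap with 6 h. Cows 3, 4, 6, 7 and 8 all lay between 4.31 and 4.33 there, which may be a lower limit of this probe set. The change at 9 h may therefore be a lower bound. The changes were -2.09 at 6 h (SE 0.26, adjusted p = 3.13e-08), -3.97 at 9 h (SE 0.21, adjusted p = 5.99e-17) and -2.43 at 12 h (SE 0.26, adjusted p = 1.32e-09), each lower in every cow and without overlap with -22 h. At 48 h AGPAT2 was lower in 5 of 8 cows, with a change of -0.21 (95% interval -0.64 to 0.21).

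The DGAT enzymes, which join the last acyl chain to diacylglycerol by proteins of unrelated sequence, went different ways. DGAT2 lay between 7.04 and 7.63 at -22 h and at 6.74, 8.13, 6.81 and 6.78 in cows 1, 3, 7 and 8 at 3 h. Cow 3 was thus above all cows at -22 h, and the other 3 below. At 6 h DGAT2 read 5.53, 5.69, 5.07 and 4.38, a change of -2.22 (SE 0.23, adjusted p = 1.37e-09). It ran from 4.65 to 5.67 at 9 h, a change of -2.26 (SE 0.19, adjusted p = 4.32e-12), and read 5.25, 5.69, 5.84 and 5.91 at 12 h, a change of -1.72 (SE 0.23, adjusted p = 1.87e-07). None of these 3 hours overlapped -22 h. At 48 h it was between 6.73 and 7.61, with a change of -0.38 (95% interval -0.77 to 0.01, adjusted p = 0.112).

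DGAT1 was called at none of the 5 hours. Its values ran from 7.51 to 8.72 at -22 h, from 7.55 to 8.76 at 3 h, from 7.28 to 8.38 at 6 h, from 7.52 to 8.77 at 9 h, from 8.09 to 8.99 at 12 h and from 8.07 to 9.20 at 48 h. The spread among cows was wide at every hour. Cow 3 was the lowest of the 4 cows at 3, 6 and 12 h, and it was also the lowest of all 8 at -22 h. The changes were 0.21, -0.17, -0.07, 0.35 and 0.39 at the 5 hours in turn, with a 95% interval of -0.56 to 0.42 at 9 h. With the cow as a block, which removes that spread, DGAT1 was lower at 6 h by -0.34 (adjusted p = 0.0134, lower in 4 of 4 cows) and higher at 48 h by 0.39 (adjusted p = 0.00135, higher in 8 of 8 cows).

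LPIN1, a phosphatidic acid phosphatase that forms diacylglycerol, lay between 2.89 and 3.66 on all arrays, near the lower end of the scale. Its hourly means ran from 3.02 to 3.28, and no change was called. A fall could not have been seen in this probe set, and of a rise it gives no sign beyond 0.36, the upper end of the 95% interval at 48 h. Its change at 48 h, 0.16, was called higher when arrays were centred on their medians (0.30, adjusted p = 0.0227), when arrays were weighted (0.26, adjusted p = 0.0193) and without cow 7 (0.27, adjusted p = 0.0225).

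In the successive comparisons used by the study, 4 of the 14 probe sets were DE at least once, THRSP, GPAM, AGPAT2 and DGAT2. Of all probe sets 22.2% (5348 of 24128) were DE in the fit used here. The study itself reports fewer DE transcripts, so these calls are not its own. From 3 to 6 h THRSP, GPAM and DGAT2 fell, 3 of 14 against 4.16% of all probe sets. From 6 to 9 h AGPAT2 fell, 1 of 14 against 2.35%. GPAM rose from 9 to 12 h, 1 of 14 against 1.5%, and THRSP, GPAM and AGPAT2 rose from 12 to 48 h, 3 of 14 against 6.86%. No member was DE from -22 to 3 h.

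Several of these enzymes have relatives that catalyse the same step, and some of these moved with the member and others did not. GPAT3 and GPAT4 are the acyltransferases of the endoplasmic reticulum for the GPAM step, AGPAT1, AGPAT3 and AGPAT5 share their reaction with AGPAT2, and MID1IP1 is a relative of THRSP that binds ACACA. The changes of 5 pairs were set against each other within the 8 cows at 9 and 48 h. The pairs were chosen after their values were seen, so the differences are given as a description, without a test. At 9 h each of the 5 had the same direction in 8 of 8 cows. GPAT3 rose, by 1.96 at 6 h and by 1.36 at 9 h, and the change of GPAM minus that of GPAT3 was -7.63 at 9 h (SD 0.59 over cows). GPAT4 fell by 0.35 in its brighter probe set and by 0.72 in the other, which was nearly as bright (means of 7.32 and 7.20), and GPAM minus GPAT4 was -5.91 (SD 1.12) with the brighter. AGPAT2 minus AGPAT1 was -3.88 (SD 0.49). AGPAT1 lay between 4.87 and 4.88 at 3 h and between 4.90 and 4.97 at 9 h, with a lowest value of 4.39 at 6 h. With so narrow a range its probe set may sit near its own lower limit, and a fall of AGPAT1 may have gone unseen. AGPAT3 and AGPAT5, which were not paired, were lower at 9 h in 8 of 8 cows, by -1.54 and -0.80 in their brightest probe sets. The other 4 of AGPAT5 were lower too, by -0.45 to -0.92, and all were called, while the other 2 of AGPAT3 changed by -0.27 and -0.08 and were not. DGAT2 minus DGAT1 was -2.20 (SD 0.37). THRSP and MID1IP1 both fell, and THRSP minus MID1IP1 was -5.52 (SD 1.01), where THRSP was near the lower end of the scale.

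At 48 h the differences were smaller. DGAT2 minus DGAT1 was -0.77 (SD 0.46, lower in 7 of 8 cows), and GPAM minus GPAT3 was -0.56 (SD 0.61, lower in 7 of 8 cows). GPAM minus GPAT4 was -0.40. The remaining differences were -0.10 for AGPAT2 minus AGPAT1 (SD 0.53, lower in 5 of 8 cows) and 0.17 for THRSP minus MID1IP1 (SD 2.05). MID1IP1 was still lower at 48 h by -1.54, in 8 of 8 cows.

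**Figure D3:**
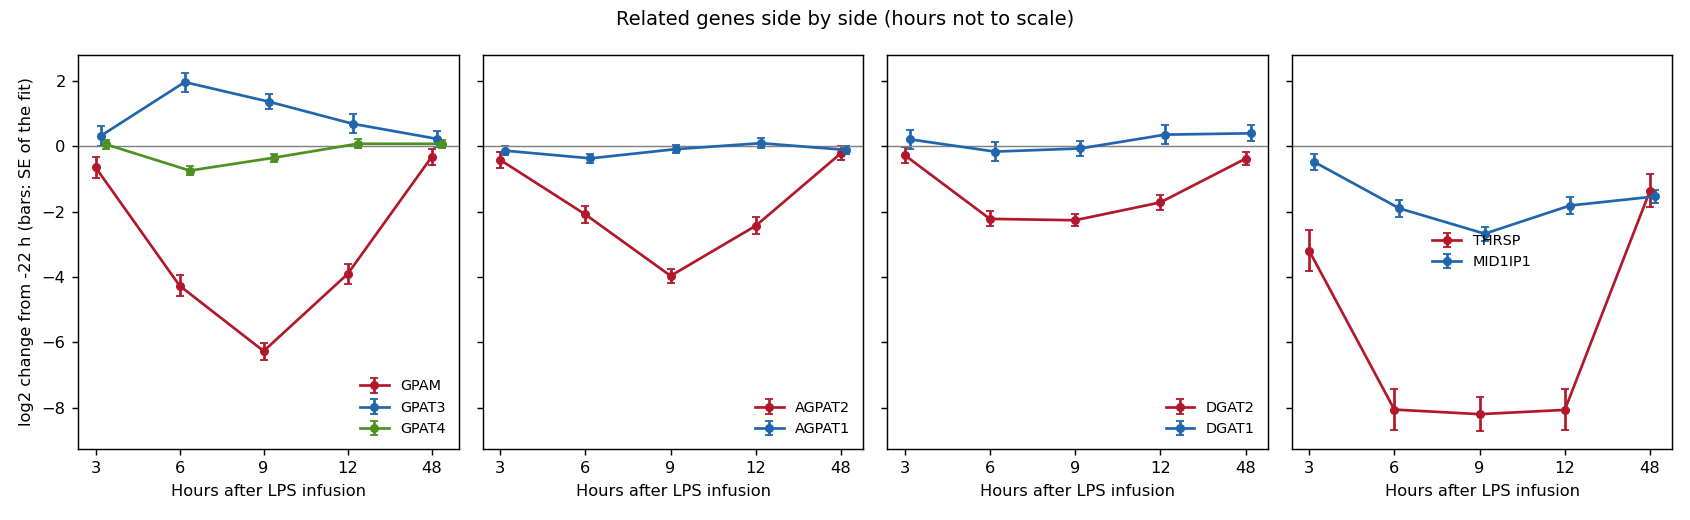
Log2 change from -22 h, with the SE of the fit as bars, for GPAM, AGPAT2, DGAT2 and THRSP and their relatives against hours after LPS infusion, evenly spaced. The member shown in red lies lowest from 3 to 12 h in each panel, and GPAT3 lies above 0 at 6 and 9 h. DGAT1 runs from -0.17 to 0.39, and AGPAT1 has its lowest point, -0.37, at 6 h. The AGPAT1 probe set may sit near its own lower limit.

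The wider pathway was read through 5 lists with 102 genes written and 78 measured. At 3 h 1 of the 78 genes was lower, SCD5, and none higher, against 2.57% of all genes lower and 4.47% higher. At 6 h 44 were lower and 9 higher, against 29.3% and 26%. At 9 h 46 were lower and 16 higher, against 28.4% and 36.6%, at 12 h 36 lower and 12 higher, against 22.2% and 30.9%, and at 48 h 20 lower and 5 higher, against 16.2% and 15%. The 3 h count and the 48 h split depended on the processing. With weighted arrays 6 were lower and 6 higher at 3 h and 17 lower and 12 higher at 48 h, and with arrays centred on their medians 12 were lower and 17 higher at 48 h.

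Of 18 measured genes of fatty acid synthesis, 14 were lower at 6 h, 15 at 9 h, 11 at 12 h and 5 at 48 h. Over all genes 29.3%, 28.4%, 22.2% and 16.2% were lower at these hours. In the list 1 gene, MCAT, a mitochondrial transacylase, was higher, at 9 h (0.47, and 1.05 in its dimmer probe set), against 36.6% of all genes. The median change of the 18 at 9 h was -1.40, against 0.04 over all genes. ACSS2, which activates acetate, the main carbon source for fatty acids in ruminants, fell from a mean of 11.15 at -22 h to 6.90 at 12 h, a change of -4.25 (SE 0.41). SCD5, a desaturase related to SCD, changed by -3.36 at 9 h (SE 0.17), and ELOVL6, which elongates palmitate, by -3.34 (SE 0.35). FADS2, the delta-6 desaturase, changed by -3.21 at 12 h (SE 0.45).

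Among the 12 other genes of glycerolipid assembly, 7 were lower and 2 higher at 6 h, and 6 lower and 3 higher at 9 h, beside the shares of all genes given above. MOGAT1, a monoacylglycerol acyltransferase, changed most, from a mean of 9.10 to 4.67 at 12 h (-4.43, SE 0.22). AGPAT3 changed by -1.59 at 12 h in its brightest probe set, but its other probe sets by 0.31 and 0.78, so its probe sets disagree. CDS2, which draws phosphatidic acid toward phosphatidylinositol, changed by -1.57 at 6 h. The rise of GPAT3 rests on its brighter probe set, and the dimmer, with a mean of 2.82, changed by 0.19 at 6 h and by 0.05 at 9 h.

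Of the 20 measured regulators 10 were lower and 6 higher at 9 h, against 28.4% and 36.6% of all genes. The 6 that were higher were NR1H2 (1.20), USF1 (1.03), PRKAB1 (0.97), INSIG1 (0.67), USF2 (0.38) and PRKAG1 (0.35). MID1IP1 changed by -2.68 at 9 h (SE 0.21), THRA, a thyroid hormone receptor, by -2.61 (SE 0.16), RXRA, its common partner, by -2.55 (SE 0.12), and INSIG2, which holds the SREBP precursors in the endoplasmic reticulum, by -2.05 (SE 0.14) and in its other probe sets by -2.49 and -2.30. SREBF2, MLXIPL and NR1H3, named after their values were seen, encode the sterol-sensing relative of SREBF1, the carbohydrate response factor ChREBP and the liver X receptor alpha. They changed at 9 h by -1.80, -0.45 and -1.63, and all 3 were called. The dimmer probe sets of MLXIPL and NR1H3 changed by -0.20 and -0.87, also called, and that of SREBF2, with a mean of 1.51, by 0.02.

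Genes of the lipid droplet and of fatty acid uptake held large falls and also the largest rises of the 5 lists, FABP3 and PLIN2. Of 13 droplet genes 6 were lower and 2 higher at 9 h, where the shares of all genes were 28.4% and 36.6%. PLIN2, which coats droplets, rose from a mean of 6.70 to 9.89 at 9 h (3.19, SE 0.26, higher in 8 of 8 cows), and at 48 h it was below -22 h by -1.49 (SE 0.26, adjusted p = 9.8e-05, lower in 8 of 8 cows). CIDEB, a droplet protein of hepatocytes needed to load lipoproteins with triglyceride, changed by -3.82 at 9 h (SE 0.15) and by -3.77 in its other probe set. PLIN5 fell to 1.94 at 12 h, the lower end of the scale, a change of -2.80, and FITM2, which takes part in droplet formation, changed by -2.49 at 6 h. Of 15 genes of uptake and activation 9 were lower and 4 higher at 9 h. The carrier CD36 changed by -3.31 at 9 h (SE 0.35), and the fatty acid transport proteins SLC27A2 and SLC27A6 by -3.51 and -4.07 at 12 h. FABP3, a fatty acid binding protein better known from heart muscle, rose from 2.51, near the lower end, to 6.42 at 9 h (3.92, SE 0.45).

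**Figure D4:**
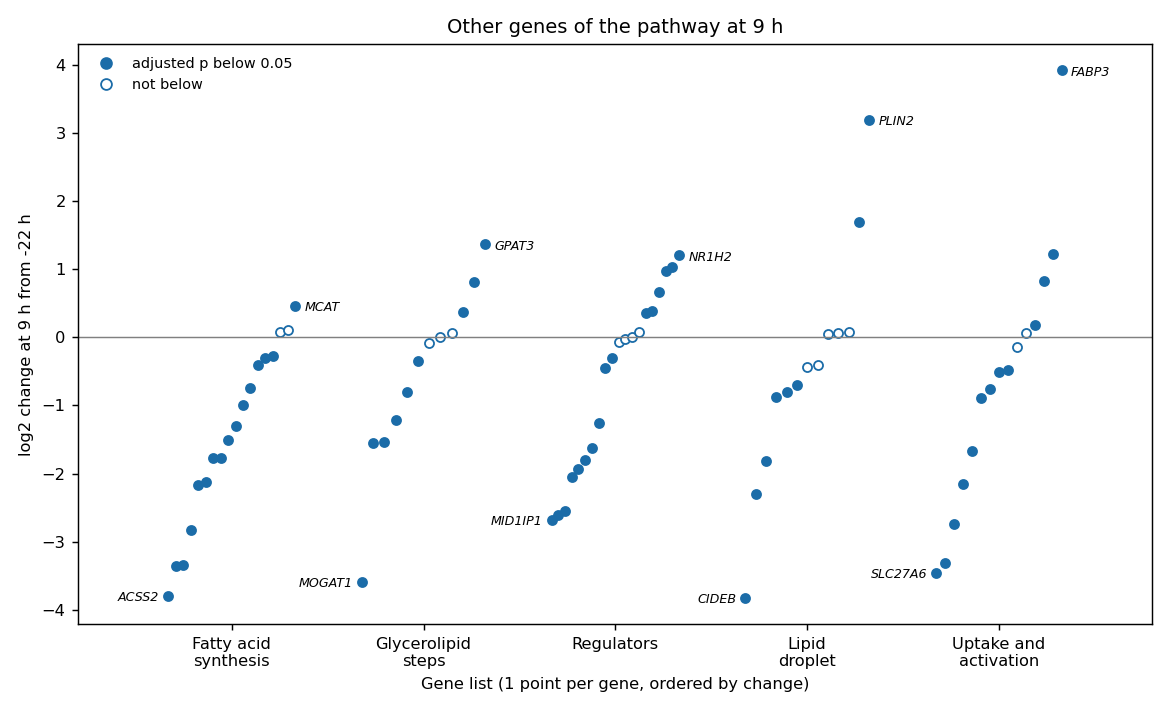
Log2 change at 9 h from -22 h for each of the 78 measured genes of 5 pathway lists, 1 point per gene, ordered by change within a list. Filled points have an adjusted p below 0.05. In the fatty acid synthesis list 15 of 18 genes lie below 0 with filled points, against 28.4% of all genes called lower. PLIN2 and FABP3 stand highest in the droplet and uptake lists.

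Across the 36 arrays, which share cows and hours, the values of THRSP and GPAM had a Pearson correlation of 0.91. GPAM correlated with AGPAT2 at 0.96, with DGAT2 at 0.90, with SCD at 0.65, with SREBF1 at 0.50 and with DGAT1 at 0.21. For THRSP these values were 0.88, 0.86, 0.76, 0.53 and 0.22, and its correlation with FASN was 0.85. Among 5898 genes with a mean value of at least 5, those most like THRSP over the 36 arrays were CARNS1 (0.971), BLTP3B (0.964), GPR37 (0.962), NSMCE4A (0.958) and PDXP (0.957). For GPAM they were CASTOR1 and SEC14L2 (both 0.978), KLB (0.977), LOC515578 (0.976) and ANAPC16 (0.973). The gene next in order, TMEM47 for THRSP at 0.954 and SLC25A4 for GPAM at 0.973, was close to the fifth in both, so the cut is arbitrary.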

How the data were processed

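Biopsy RNA was hybridised to the Affymetrix Bovine Genome Array. The authors made the deposited values, 1 log2 value per probe set and array, with GCRMA (background correction from probe sequence, quantile normalization and summary of the probes), and these were used as deposited. Quantile normalization gives all arrays nearly the same distribution, so a change is relative to the other probe sets. The number of cows and their spread set the precision. The p-values of the main fit use 1 spread per probe set, pooled over all hours, and take the arrays of a cow as independent. For THRSP the SD over cows was 1.79 at 3 h and 1.60 at 48 h, but 0.04 at 9 h. Its SE at 3 and 48 h therefore understates the spread at those hours.

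Of the 24128 probe sets, 112 of them controls, 13292 were named by a single gene, 86 by several, and 10724 had no entry in the annotation table. Arrays were grouped by hour from their labels. R 4.3.3 and limma 3.58.1 fitted all 36 with a mean for each hour, no term for the cow and empirical Bayes variances. Each hour was compared with -22 h (Benjamini-Hochberg-adjusted p below 0.05) and, after the methods of the study, with the hour before it (Bonferroni-adjusted p below 0.01). The 12 h against 6 h comparison and the paired genes were added after values were seen.

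The 10 genes, the 5 pathway lists and the 9 marker lists were chosen with earlier results of these data known. Genes named were the 10 members, up to 4 genes of each pathway list with the largest called change in the same direction in every cow, and the 5 genes most correlated with THRSP and with GPAM. Every other gene, MCAT, the relatives in the paired comparisons and the next in order of likeness among them, was named after its values were seen, except those of the marker lists.

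The labels give each cow's identity, so arrays of 1 cow are paired. Deviations from the hourly means correlated between -22 and 48 h at 0.32 on average within a cow (0.12 to 0.50 over 8 cows) and at -0.04 between cows. Scripts were tested on simulated data. The alternatives tried were the cow as a fixed or a random block, each cow or doubtful array left out, only the cows sampled at every hour, weighted arrays, median centring on probe sets with a mean of at least 5, a dim filter that keeps probe sets reaching 5 in 4 arrays, control probe sets dropped, a different variance prior, other p adjustments, and averaging the probe sets of a gene. Raw array files were not used here. Figures were drawn with matplotlib 3.10.9.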

Additional observations from a re-analysis of the deposited data

Results flagged for a closer look

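In 84 groups of 4 or 8 cows (14 probe sets at 6 hours), 12 log2 values stood apart from the rest of their hour by Dixon's criterion, which chance exceeds in about 1 of 20 groups. Of these, 6 fell at hours with 4 cows. Cow 2 at 48 h was low for THRSP, at 5.45 with the next cow at 8.54, and for SCD, at 8.47. Cow 3 gave 5: DGAT1 was low at 3 h (7.55) and at 6 h (7.28), DGAT2 was high at 3 h (8.13), SCD was low at 9 h (8.62), and the dimmest SREBF1 probe set was high at 9 h (2.97). Cow 7 gave 3, all high: THRSP at 6 h (2.84), GPAM at 6 h (7.46) and AGPAT2 at -22 h (9.52). THRSP in cow 1 was high at 12 h (2.81), and the second SREBF1 probe set in cow 4 was low at 48 h (6.26).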

How the results depend on the processing

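The change of each of the 10 genes at each of 5 hours was refitted under 20 alternatives, or 19 for LPIN1, which the dim filter removes. Of these 995 values 958 kept direction and side of the threshold, 26 lost the call, 11 gained one and none reversed a call. Of 27 called changes, 22 held under each of these. The others were ACACA at 6 h and THRSP, SREBF1, FASN and SCD at 48 h. With Bonferroni below 0.05, which is not among the 20, those 5 and also THRSP at 3 h (adjusted p = 0.386), SCD at 6 h (1), ACACA and SREBF1 at 9 h (0.363 and 0.418) and FASN at 12 h (0.0746) lost the call.

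Counts of the 14 member probe sets (1, 11, 11, 6 and 6 at 3, 6, 9, 12 and 48 h) and of the 78 pathway genes (1, 53, 62, 48 and 25) moved as follows. The replicate block for the cow gave 2 members and 3 pathway genes at 3 h, and as a random block 3 pathway genes. It moved no other count by over 1.5 times. Leaving out 1 cow at a time gave 0 to 2 pathway genes at 3 h (0 without cow 8), 15 to 24 at 48 h (15 without cow 2, 16 without cow 4), and 3 to 5 members at 48 h. The 4 cows with all hours gave 1 member and 10 pathway genes at 48 h. Without the 48 h array of cow 2 there were 3 members and 16 pathway genes at 48 h and 2 pathway genes at 3 h. Without the -22 h array of cow 1 there were 4 pathway genes at 3 h, and without the 3 h array of cow 3, chosen after seeing the data, 2 members and 2 pathway genes. At 3 h median centring gave 3 pathway genes, array weights 3 members and 12 pathway genes (6 lower, 6 higher), the dim filter 2 and 4, and averaging the probe sets of a gene 2 pathway genes. Bonferroni below 0.05 gave 0, 7, 6 and 0 members and 0, 28, 39 and 2 pathway genes at 3, 6, 9 and 48 h. Of the successive comparisons 4 members were DE, and 11 with Benjamini-Hochberg below 0.05. The cause of these moves was not tested. Some of the alternatives used fewer arrays or a stricter threshold, and others did neither. Of all called probe sets, 59.5% were higher at 48 h as deposited and 84.6% after median centring. Array weights moved this share from 59.3% to 47.3% at 3 h and from 51.4% to 62.1% at 6 h.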
